A study of Homo sapiens with 8 samples.

Results

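Mitochondrial ribosomal proteins are the protein components of the ribosome that works inside mitochondria. Mitochondria keep a small genome that encodes core subunits of the respiratory chain and of ATP synthase, and the mitochondrial ribosome is the machine that translates those messages. Its ribosomal RNAs are made in the mitochondrion, whereas its proteins are encoded by nuclear genes, translated in the cytosol and imported. The small subunit reads the messenger RNA, the large subunit joins amino acids and anchors the ribosome to the inner membrane, and each subunit combines descendants of bacterial ribosomal proteins with proteins found in mitochondrial ribosomes alone.

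The members were chosen by name, as the gene symbols made of MRPL or MRPS, digits and an optional A, B or C. There were 77 of them among the 25435 gene symbols of the count table, 48 with an MRPL and 29 with an MRPS symbol. Of these, 76 passed the filter on low counts and were tested among 13213 genes. MRPS24, a small subunit protein, did not pass: it held between 0 and 4 counts in each library, and the readthrough symbol URGCP-MRPS24, with which it shares exons, was at 0 in all 8. By position in the ribosome, 50 of the tested members belonged to the large subunit, among them MRPS30 and MRPS18A despite their names, and 25 to the small subunit. MRPS36 was counted in neither, because the protein is a subunit of the 2-oxoglutarate dehydrogenase complex.

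The 8 mRNA libraries came from HGC27, a human gastric cancer line that the labels describe as having no p53. Each of 4 groups had 2 libraries: GFP as the control, and cells overexpressing the p53 mutant R175H, R248Q or R273H, substitutions in the DNA-binding domain that are common in tumours. The title of the series speaks instead of p53 KO and KD, and the groups here follow the sample labels and the design text, which give overexpression. The labels give the same growth medium, kit and cell background for all groups, and no vector, promoter, time of expression or number of clones. They do not say whether the libraries of a group came from separate cultures, so p-values measure the spread between libraries, which may be technical. Total counts ran from 6800463 to 11788035 per library. VIM, a mesenchymal filament gene, stood at 4612 to 5733 CPM, that is, counts scaled by the total of each library, while the gastric genes TFF1, TFF2 and GKN1 had 0 counts in every library and the epithelial gene EPCAM had 13 counts over all 8. Markers that define gastric epithelium were thus at or near 0.

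All 76 tested members were expressed, most of them above the median of all genes tested and some, such as MRPL33, below it. Mean CPM, normalised by the TMM method, ranged from 19.8 to 354, with a median of 74.7 against 30.1 for all genes tested. Per kilobase of transcript, which allows genes to be compared with each other, levels spanned 21.9-fold. The highest were 3 large subunit proteins: MRPL51 at 273.1 CPM per kb, with libraries from 235 to 333, MRPL13 at 266, with libraries from 247.8 to 314, and MRPL4 at 248.4, with libraries from 224 to 266. The lowest were MRPL50 at 16.6, MRPS31 at 16.5 and MRPS17 at 12.5 CPM per kb, with libraries from 14.4 to 19.7, 14.6 to 19.6 and 9.92 to 16.8. MRPL50 and MRPS31 are found in mitochondrial ribosomes alone, and MRPS17 has a bacterial counterpart. The place of MRPL50 rests on its annotated length of 3332 nt, the longest of the tested members, since its mean was 55.4 CPM. The transcript forms present in these cells were not measured. MRPL51 shares exons with NCAPD2 and MRPL4 with AC011511.2 and AC011511.3, all on the opposite strand, and MRPS17 with AC092647.5 on the same strand. The rule for assigning such reads is not given, so the levels of these members are uncertain. The order was otherwise a continuous slope: of 75 neighbouring pairs, 1 had library ranges that did not overlap, namely MRPL23 and the next lower MRPL19.

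**Figure D1:**
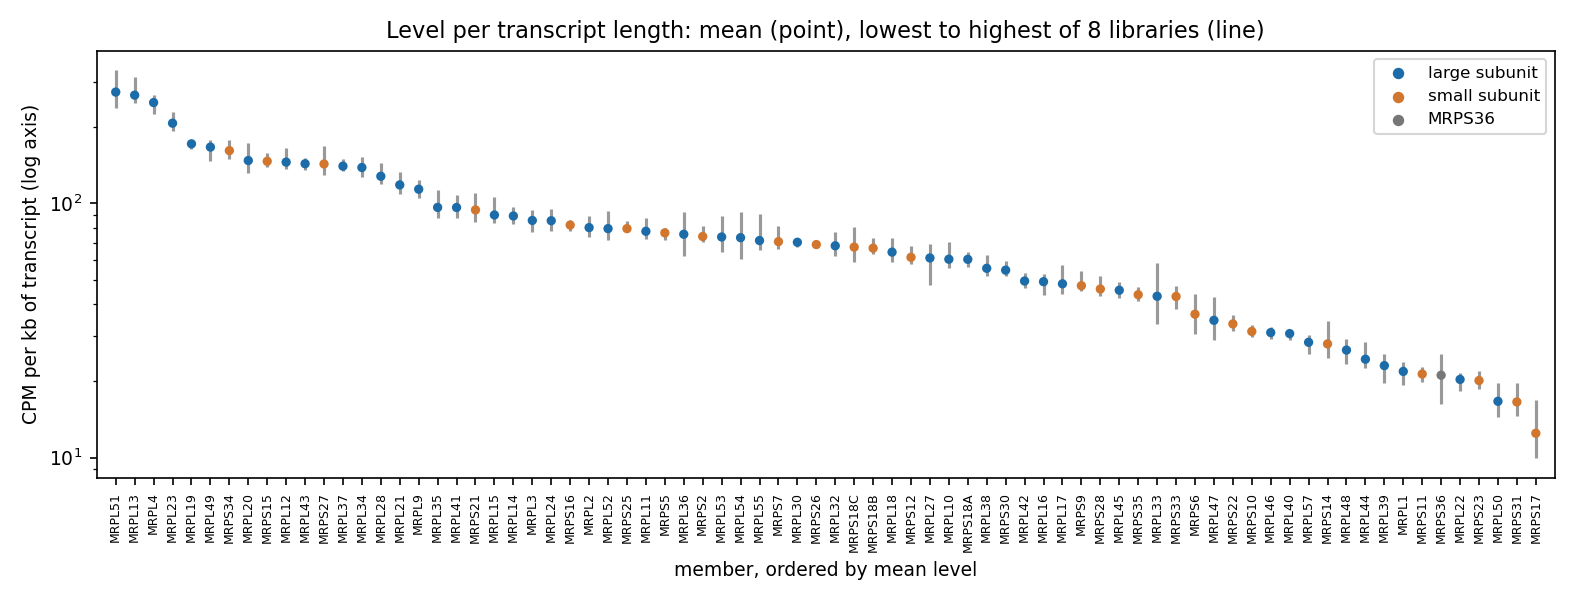
Level of each tested member in CPM per kb of transcript on a log axis, ordered by mean, with points for the mean of 8 libraries, lines from the lowest to the highest library, and colours for the subunit. Levels fall from 273.1 for MRPL51 to 12.5 for MRPS17, and neighbours overlap except MRPL23 and MRPL19.

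The members varied little from library to library. For the median member the highest library was 1.21 times the lowest, and the widest range was 1.74 times, in MRPL33, the counterpart of bacterial L33. Between group means, the largest ratio was 1.44, in MRPS17. No member had group means more than 1.5 times apart, and 15 had group means more than 1.2 times apart.

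Of the 8 libraries, a GFP control stood apart from the rest. GFP replicate 1 was the highest of the 8 libraries for 61 of 76 members and stood above all 6 mutant libraries for 64 of them. GFP replicate 2 lay within the range of the mutant libraries for 53 members, above it for 14 and below it for 9. The members' median deviation from each gene's own mean was 0.149 on the log2 scale in GFP replicate 1 and -0.014 in GFP replicate 2. In the other groups it was -0.062 and -0.008 for R175H, -0.052 and -0.047 for R248Q, and -0.002 and 0.043 for R273H. Both subunits stood apart there, with deviations of 0.16 for the large and 0.14 for the small subunit in GFP replicate 1, whereas all genes tested had a median deviation of -0.004 there. As a share of all counts, the members made up 0.747% of GFP replicate 1, 0.676% of GFP replicate 2 and between 0.654% and 0.691% of the 6 mutant libraries.

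**Figure D2:**
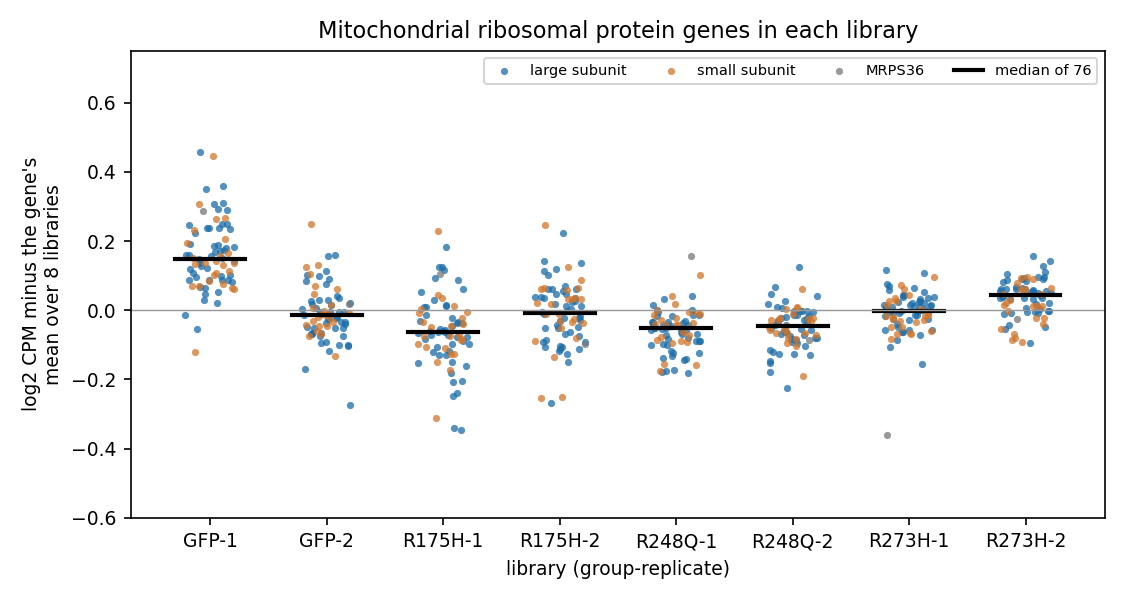
Deviation of each of the 76 tested members from its own mean over the 8 libraries, in log2 CPM, by library, with large subunit, small subunit and MRPS36 in separate colours and a bar at the median. The cloud of GFP replicate 1 is centred at 0.15, and the other 7 medians lie between -0.06 and 0.04.

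The replicates of the other groups did not differ in this way. The median log2 ratio of replicate 1 to replicate 2 was 0.15 in GFP, with 73 of 76 members higher in replicate 1. It was -0.06 in R175H, with 25 higher, -0.01 in R248Q, with 36 higher, and -0.04 in R273H, with 24 higher. Members are short genes: their median transcript length was 1151 nt, from 461 to 3332, against 2538 nt for all genes tested, and 73 of 76 were below that value. Among the members themselves the GFP ratio had a median of 0.17 for the 26 under 1000 nt and 0.15 for the 50 others. The highest ratios on the 2 sides were 0.622 and 0.431. Since nearly all members are short, this split does not separate length from family, and the part of length was not tested. Medians with an offset for transcript length are given further below. Because the GFP libraries differed, the values against GFP are given both with the 2 GFP libraries and with GFP replicate 2 alone. In the latter fit the lone GFP library is assumed to vary like the other groups.

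**Figure D3:**
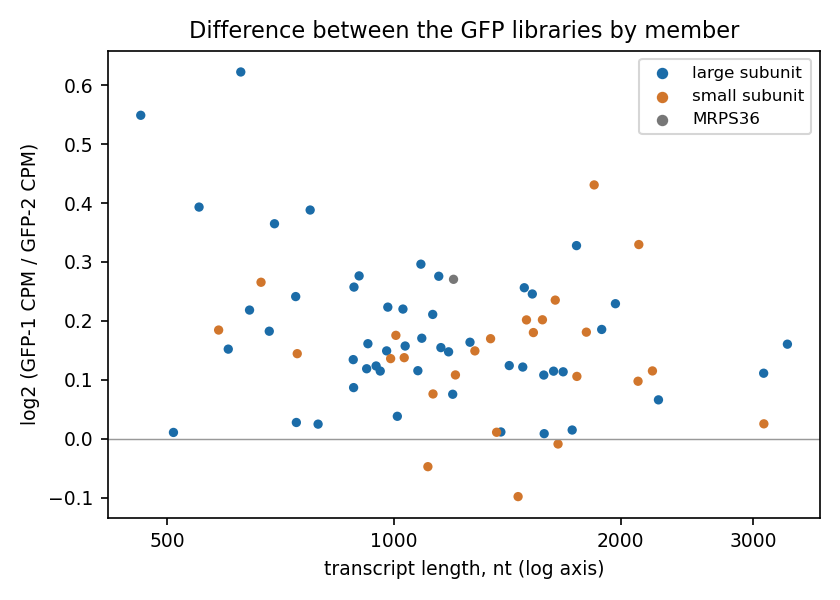
Log2 ratio of GFP replicate 1 to GFP replicate 2 for each tested member against transcript length in nt on a log axis, coloured by subunit. Of the 76 points, 73 lie above 0, at all lengths from 461 to 3332 nt.

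In cells with R175H, MRPS27 and MRPL10 were higher than in GFP cells, and 8 members were lower, by 0.23 to 0.53 on the log2 scale. These 10 had an adjusted p under 0.05 in the quasi-likelihood test of edgeR, corrected over all genes by Benjamini-Hochberg. Against all genes tested, where 6.59% were called higher and 4.81% lower, the 2 higher and 8 lower members were 2.63% and 10.53% of those tested. The median member was at -0.10, with 66 of 76 below 0, beside 0.01 for all genes tested. Against GFP replicate 2 alone the median was -0.02 with 42 of 76 below 0, 3 members were called higher, beside 6.53% of all genes, and 5 lower, beside 5.69% of all genes. Of these, 2 higher and 4 lower members were called in both fits. Without GFP replicate 2 instead, more members were called lower, and without either R175H library fewer were. Shares of all genes in those fits are not given here, so these moves are not read as particular to the members. The libraries of R175H and GFP did not overlap for 31 members (40.8%), beside 51.1% of all genes tested. The shift of the whole family thus moved with GFP replicate 1, and the calls that follow are given in both fits. In bulk libraries, fewer cells with a transcript and less of it per cell cannot be told apart.

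MRPS27, a small subunit protein with pentatricopeptide repeats, a fold that binds RNA, had the clearest change. It stood at 228 and 230.2 CPM with R175H, 178 and 177 with GFP, 189 and 191 with R248Q and 186 and 182 with R273H. Both R175H libraries were above the other 6, and the 2 GFP libraries were nearly level with each other. The log2 fold change of R175H over GFP was 0.36 ± 0.05 (SE; adjusted p = 0.000329, edgeR) and 0.37 ± 0.05 against GFP replicate 2 alone (adjusted p = 1.4e-07). The call held in 17 of 17 alternative settings, with values from 0.35 to 0.40. The gene shares no exon with another gene in GENCODE release 29.

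MRPL10 carries the flexible stalk of the large subunit, on which translation factors dock. Its level was 113 and 121 CPM with R175H, 99.7 and 98.7 with GFP, 99.5 and 95.5 with R248Q and 103 and 100.5 with R273H. The R175H libraries were again the highest pair, with no overlap with the others. The log2 fold change was 0.24 ± 0.06 (adjusted p = 0.0238, edgeR) and 0.25 ± 0.07 against GFP replicate 2 alone (adjusted p = 0.00729), and 8 of 17 alternatives kept the call. MRPL12, the protein that forms the mobile arm of the same stalk and also binds the mitochondrial RNA polymerase, had 169 and 145 CPM with GFP and 139.9 and 146 with R175H, a log2 difference of -0.13 ± 0.07 that did not pass the test (adjusted p = 0.238).

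Of the 8 lower members, MRPL36, the small counterpart of bacterial L36, kept its call in 16 of 17 alternatives. It had 38.2 and 37.5 CPM with R175H against 55.8 and 50.2 with GFP, 44.6 and 47.2 with R248Q and 41.9 and 48.1 with R273H. Both R175H libraries lay below the other 6. The log2 fold change against GFP was -0.49 ± 0.09 (adjusted p = 0.00256, edgeR), and -0.41 ± 0.10 against GFP replicate 2 alone (adjusted p = 0.00269).

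MRPS6, the counterpart of bacterial S6 on the platform of the small subunit, was measured at 43.4 and 39.5 CPM with GFP, 33.0 and 30.3 with R175H, 35.0 and 37.6 with R248Q and 35.6 and 35.5 with R273H. GFP was highest and R175H lowest, without overlap between them. Its log2 fold change was -0.39 ± 0.09 (adjusted p = 0.0115, edgeR) and -0.33 ± 0.11 against GFP replicate 2 alone (adjusted p = 0.0405). MRPS6 shares exons on the same strand with SLC5A3, a myo-inositol transporter gene that had 17.8 and 26.4 CPM with GFP and 30.4 and 27.7 with R175H, so reads in the shared exons could have been assigned to either.

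MRPL35, the counterpart of bacterial L35, had 107 and 98.1 CPM with GFP and 84.4 and 84.6 with R175H. Its log2 fold change was -0.28 ± 0.07 (adjusted p = 0.0152, edgeR) and -0.22 ± 0.07 against GFP replicate 2 alone (adjusted p = 0.0339). MRPL49, found in mitochondrial ribosomes alone, had 90.2 and 89.5 CPM with GFP and 74.4 and 78.4 with R175H. In both genes every R175H library was below every GFP library. The change of MRPL49 was -0.23 ± 0.07 (adjusted p = 0.0339, edgeR) and -0.22 ± 0.07 against GFP replicate 2 alone (adjusted p = 0.0325), with 7 of 17 alternatives keeping the call. MRPL49 shares exons with FAU and SYVN1 on the opposite strand, and since the strand setting of the counting is not given in the sources used here, reads of these genes cannot be told apart there.

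The other 4 lower members were called with both GFP libraries and not with GFP replicate 2 alone. MRPS17, the counterpart of bacterial S17, had 30.9 and 22.9 CPM with GFP and 18.3 and 19.1 with R175H. The first GFP value stood far above the second, and the log2 fold change moved from -0.53 ± 0.14 (adjusted p = 0.018, edgeR) to -0.29 ± 0.14 (adjusted p = 0.182) without it. MRPL47, a large subunit protein of the bacterial L29 family, had 48.0 and 41.5 CPM with GFP and 32.6 and 35.7 with R175H, and its change moved from -0.39 ± 0.10 to -0.27 ± 0.11 (adjusted p = 0.016 and 0.0881). MRPL47 shares exons with ACTL6A on the opposite strand, a gene at 103 and 92.4 CPM with GFP and 92.4 and 93.0 with R175H. MRPL50, at 65.7 and 58.8 CPM with GFP and 48.0 and 52.4 with R175H, moved from -0.31 ± 0.09 to -0.22 ± 0.09 (adjusted p = 0.0269 and 0.104). MRPS21, the counterpart of bacterial S21, at 148 and 131 CPM with GFP and 119 and 115 with R175H, moved from -0.26 ± 0.07 to -0.17 ± 0.07 (adjusted p = 0.0246 and 0.069). All 4 stayed below GFP replicate 2 in both R175H libraries.

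Against GFP replicate 2 alone, 2 further members were called. MRPL54, a large subunit protein found in mitochondrial ribosomes alone, had 57.9 and 37.6 CPM with GFP, the widest ratio between the 2 GFP libraries of any tested member, and 44.7 and 49.9 with R175H. The R175H libraries lay between the 2 GFP libraries. Its log2 fold change was -0.01 ± 0.14 with both GFP libraries (adjusted p = 0.967, edgeR) and 0.34 ± 0.10 against replicate 2 alone (adjusted p = 0.0195), so the direction turned on which control was used. MRPL27, the counterpart of bacterial L27, had 51.1 and 50.1 CPM with GFP and 35.3 and 43.5 with R175H, with changes of -0.35 ± 0.11 (adjusted p = 0.0517) and -0.33 ± 0.11 (adjusted p = 0.0372). Among members that did not pass in either fit, MRPL45, which holds the large subunit to the inner membrane, had the largest positive value after MRPS27 and MRPL10, at 0.14 ± 0.07 (adjusted p = 0.226).

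**Figure D4:**
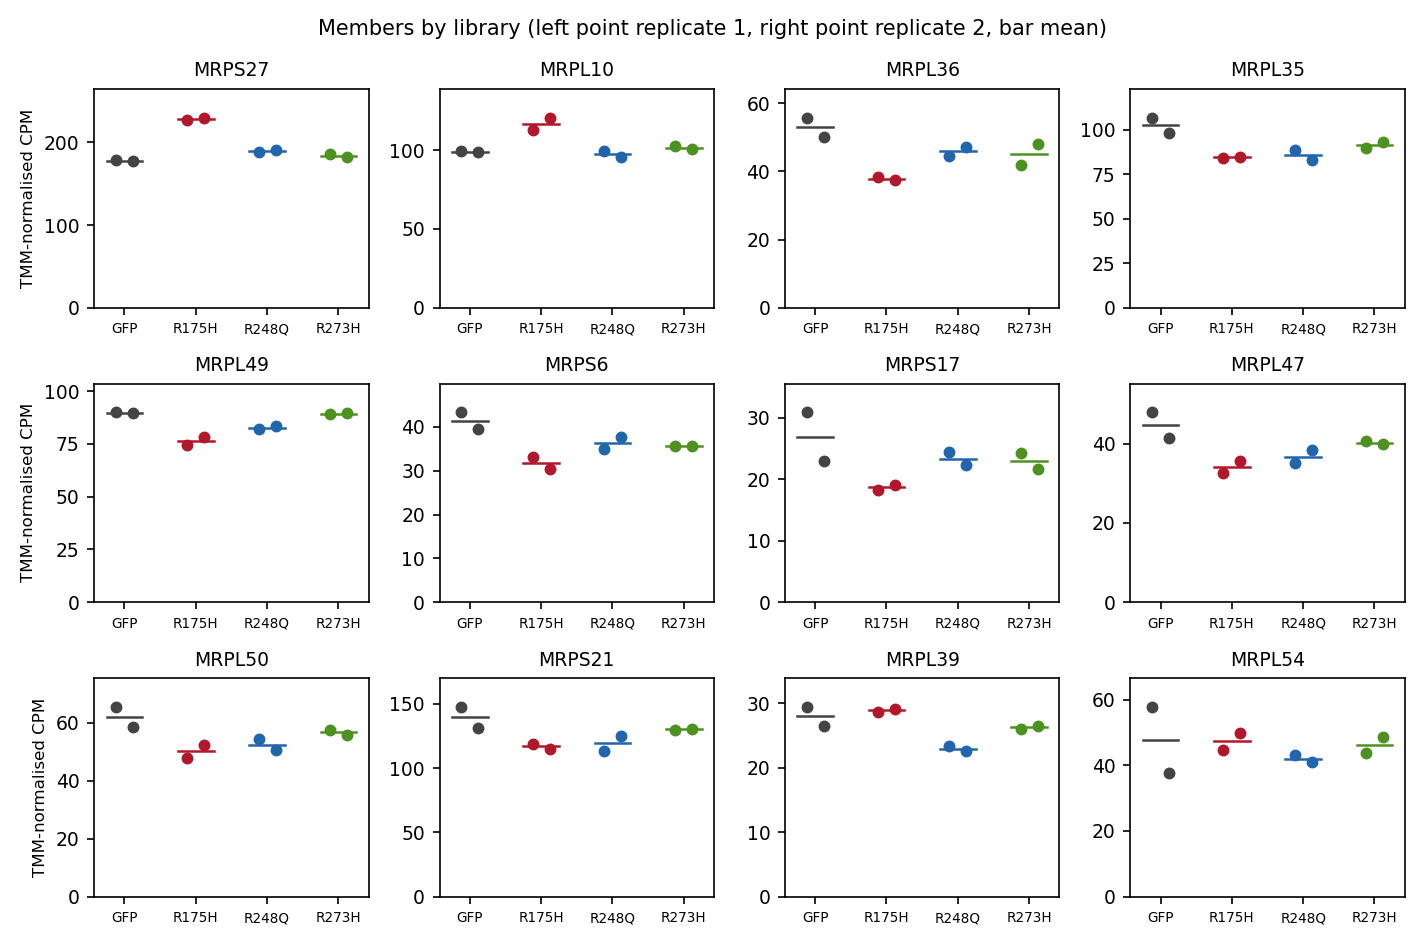
TMM-normalised CPM of 12 members in each library, with the left point of each group for replicate 1, the right point for replicate 2, a bar for the mean and axes that start at 0. MRPS27 and MRPL10 are highest in both R175H libraries, MRPL36 is lowest in both, and MRPL54 shows the 2 GFP libraries far apart at 57.9 and 37.6 CPM.

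The descendants of bacterial ribosomal proteins and the proteins specific to mitochondria both leaned the same way with both GFP libraries. MRPL55, MRPS18A, MRPS18B and MRPS36 were placed in neither class here. Of 44 tested members with a bacterial homologue, 1 was called higher (2.27%) and 6 lower (13.64%) in R175H, with a median log2 fold change of -0.13. Of 28 members found in mitochondrial ribosomes only, 1 was called higher (3.57%) and 2 lower (7.14%), with a median of -0.05. Over all genes 6.59% were higher and 4.81% lower. With GFP replicate 2 as the only control, the medians were -0.02 and -0.01. By subunit, 1 of 50 large subunit members was higher and 5 lower (median -0.11), and 1 of 25 small subunit members was higher and 3 lower (median -0.08). Against GFP replicate 2 alone the medians of the large and small subunit were -0.02 and 0.005.

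In cells with R248Q, 1 member was called lower than in GFP and none higher. This was MRPL35, at 88.6 and 83.0 CPM with R248Q and 107 and 98.1 with GFP. Every R248Q library was below every GFP library. The log2 fold change was -0.26 ± 0.07 (adjusted p = 0.0273, edgeR), and -0.19 ± 0.07 against GFP replicate 2 alone (adjusted p = 0.0983). Over all genes 5.14% were called higher and 1.61% lower, so the share of members called lower, 1.32%, was near the background. Unadjusted p was under 0.05 for 25 members (32.9%), beside 22.7% of all genes, DESeq2 called 0 in either direction, and limma-voom called 0 higher and 1 lower. The median member was at -0.13, with 73 of 76 below 0, against -0.01 for all genes. With GFP replicate 2 alone the median was -0.03, with 50 of 76 below 0, and edgeR called 0 members in either direction, beside 3.2% of all genes higher and 1.17% lower. In that fit 7 members (9.21%) had an unadjusted p under 0.05, beside 15.1% of all genes. More members were called lower without GFP replicate 2, a fit whose share of all genes is not given here. Leaving out any other single library lost the call of MRPL35. The comparisons with GFP share their control libraries.

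The lowest values for R248Q belonged to MRPS31, MRPL33 and MRPL55, and none passed the test. MRPS31, a small subunit protein specific to mitochondria, had 26.7 and 28.6 CPM with GFP and 21.3 and 23.1 with R248Q, a log2 difference of -0.32 ± 0.10 (adjusted p = 0.0656, edgeR). It was as low against GFP replicate 2 alone, at -0.36 ± 0.12 (adjusted p = 0.0708). MRPL33, at 26.9 and 18.4 CPM with GFP and 18.1 and 18.8 with R248Q, had -0.31 ± 0.15 with both GFP libraries and 0.00 ± 0.14 with replicate 2 alone. MRPL55, a large subunit protein, had -0.29 ± 0.10 and -0.10 ± 0.09 in the 2 fits. The values of MRPL33 and MRPL55 thus moved toward 0 without GFP replicate 1, where both genes were highest, and that of MRPS31 did not. At the upper end were MRPS27 at 0.09 ± 0.05 (adjusted p = 0.314), MRPL30 at 0.03 ± 0.06 and MRPL19 at 0.00 ± 0.06. The libraries did not overlap for 42 members (55.3%), beside 50.5% of all genes.

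In cells with R273H no member was called against GFP, either with both GFP libraries, where 0.931% of all genes were called higher and 0.303% lower, or with GFP replicate 2 alone, where 1.11% were higher and 0.487% lower. Unadjusted p in edgeR was under 0.05 for 7 members (9.21%) in the first fit, beside 12.9% of all genes, and for 3 (3.95%) in the second, beside 1421 of 13551 genes. DESeq2 and limma-voom called 0. The median member was at -0.06 with both GFP libraries and at 0.03 with replicate 2 alone, and members below 0 went from 62 to 27 of 76. Members were called lower when GFP replicate 2 was left out, a fit whose share of all genes is not given here. The libraries did not overlap for 23 members (30.3%), beside 39.5% of all genes. The lowest value was that of MRPS36, at 19.6 and 24.7 CPM with R273H and 30.6 and 25.4 with GFP. R273H replicate 1 was the lowest of the 8 libraries and replicate 2 lay among the others, and the difference of -0.34 ± 0.13 did not pass (adjusted p = 0.259). MRPL42, a protein specific to mitochondria, had the highest value at 0.09 ± 0.08, followed by MRPS18A at 0.06 ± 0.08 and MRPL1, the counterpart of bacterial L1, at 0.05 ± 0.10.

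**Figure D5:**
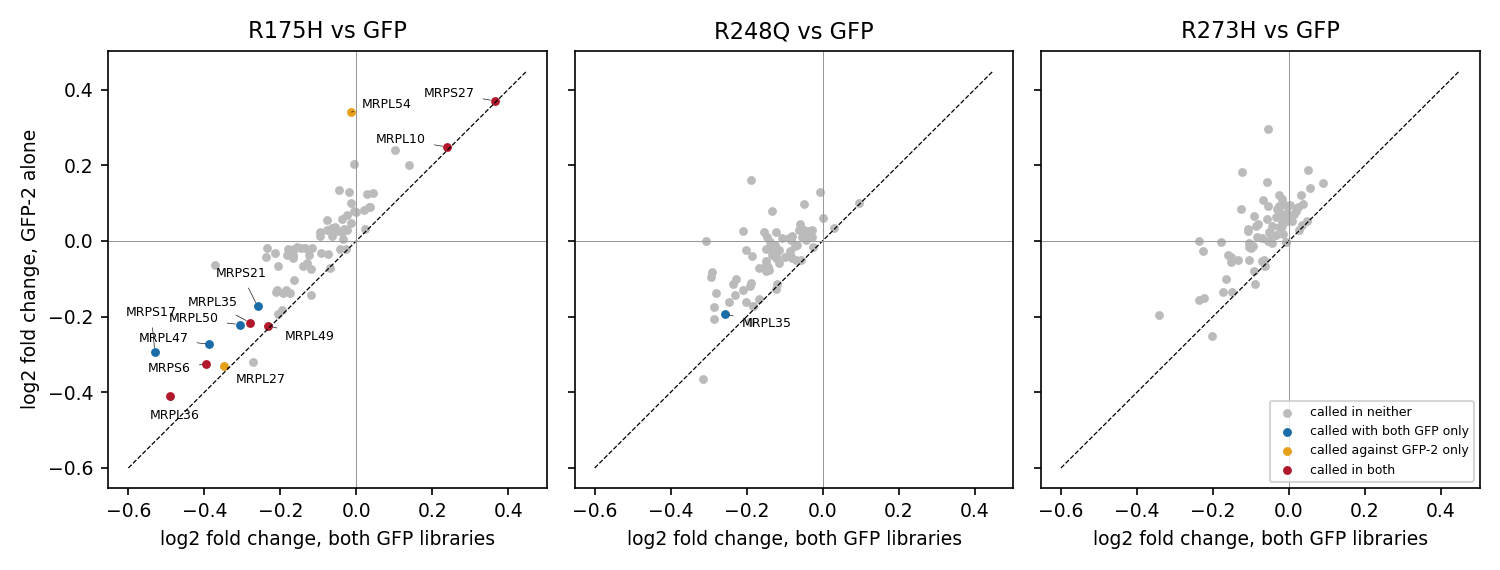
Log2 fold change of each tested member with both GFP libraries (x axis) and with GFP replicate 2 alone (y axis), in 3 panels for R175H, R248Q and R273H, with the dashed line at equal values and colours for the fit in which a member was called. Most points lie above the line in all 3 panels, and MRPS27, MRPL10 and MRPL49 lie on or near it for R175H. The comparisons share the GFP libraries.

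Comparisons between mutants do not use the GFP levels, although GFP libraries help to set the spread. R248Q and R175H differed in 3 members, all lower in R248Q, where 3.35% of all genes were called higher and 4.12% lower. MRPS27 was at -0.27 ± 0.05 (adjusted p = 0.00464, edgeR), MRPL10 at -0.26 ± 0.06 (adjusted p = 0.0164) and MRPL39 at -0.33 ± 0.10 (adjusted p = 0.0498). MRPL39, a large subunit protein related to a tRNA synthetase, had 23.4 and 22.6 CPM with R248Q and 28.6 and 29.2 with R175H, with 29.5 and 26.5 with GFP and 26.0 and 26.6 with R273H. Both R248Q libraries were the lowest of the 8, and the R175H values lay within the GFP range. Leaving out any R175H or R248Q library left 0 members called. The median of the members was -0.02, and the libraries did not overlap for 33 of them (43.4%), beside 55.9% of all genes.

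Leaving out GFP replicate 1 raised the number of calls between mutants over all genes. In that fit 9.19% of all genes were called higher and 9.07% lower in R248Q than in R175H, and 2 members were higher and 6 lower, the same counts as without GFP replicate 2. The higher members were MRPL36 at 0.28 ± 0.08 (adjusted p = 0.00956, edgeR) and MRPS17 at 0.32 ± 0.11 (adjusted p = 0.0336). Besides MRPS27, MRPL10 and MRPL39, the lower members were MRPL53, MRPL45 and MRPL4. MRPL53, specific to mitochondria, had 49.9 and 49.9 CPM with R248Q and 64.2 and 58.0 with R175H, a log2 difference of -0.28 ± 0.07 (adjusted p = 0.00309). MRPL45 had -0.17 ± 0.06 (adjusted p = 0.0334) and MRPL4 -0.10 ± 0.04 (adjusted p = 0.0494). The fold changes themselves moved little between the 2 fits, since the mutant libraries were the same.

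R273H was lower than R175H in 1 member, beside 1.46% of all genes called higher and 2.23% lower. This was again MRPS27, at -0.32 ± 0.05 (adjusted p = 0.00208, edgeR). The call was lost without R175H replicate 2 or either R273H library. MRPL10 was at -0.20 ± 0.06 (adjusted p = 0.0896), short of the threshold. The median member was at 0.06, with 51 of 76 above 0, and the libraries did not overlap for 39 (51.3%), the same share as for all genes (51.3%). Without GFP replicate 1, where 5.89% of all genes were higher and 6.45% lower, 4 members were called higher and 2 lower, again the same counts as without GFP replicate 2. The higher members were MRPL49 (0.22 ± 0.06), MRPL51 (0.17 ± 0.05), MRPL36 (0.25 ± 0.08) and MRPS21 (0.16 ± 0.05), with edgeR adjusted p of 0.00543, 0.00897, 0.0308 and 0.0329. The lower members were MRPS27 and MRPL10, the latter with an adjusted p of 0.00429.

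R273H and R248Q had no member called apart, where 0.00757% of all genes were called higher and 0.197% lower. Unadjusted p in edgeR was under 0.05 for 1 member (1.32%), beside 8.15% of all genes, and DESeq2 and limma-voom called 0. The members nonetheless leaned to higher values in R273H: the median was 0.07, beside 0.00 for all genes, and 66 of 76 were above 0. Against GFP, cytosolic ribosomal proteins and respiratory chain subunits also had higher medians for R273H than for R248Q, as given below. The lean is therefore not read as particular to the members. Its median was smaller with the offset for transcript length. The libraries did not overlap for 46 members (60.5%), beside 46.6% of all genes. Without GFP replicate 1, 1.51% of all genes were called higher and 2.84% lower, and 1 member was called, MRPL4, a large subunit protein that lines the exit tunnel. It had 319 and 339 CPM with R248Q and 362 and 376 with R273H, a log2 difference of 0.17 ± 0.04 (adjusted p = 0.00163), and the 2 groups did not overlap. In the same fit 17 members (22.4%) had an unadjusted p under 0.05, beside 15.5% of all genes. The largest negative value was that of MRPS36, at -0.22 ± 0.13, and the largest positive values were those of MRPL39 at 0.19 ± 0.09, MRPL33 at 0.18 ± 0.14 and MRPS18C at 0.17 ± 0.09.

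Members with roles of their own showed no call in any comparison with both GFP libraries. MRPL41, a large subunit protein also described as a partner of the survival factor BCL2, had 135 and 121 CPM with GFP, 118 and 117 with R175H, 110.2 and 121 with R248Q and 124 and 124 with R273H. MRPS30, first described as a programmed cell death protein and placed in the large subunit, had 95.5 and 88.3, 99.6 and 89.4, 88.1 and 86.9 and 92.7 and 91.3 CPM in the same order of groups. GFP replicate 1 was the highest library for MRPL41 and R175H replicate 1 for MRPS30. The 3 relatives of bacterial S18 sit at different places, MRPS18C at the bacterial position, MRPS18B elsewhere in the small subunit and MRPS18A in the large subunit. MRPS18B was the most abundant of them, at 112 and 98.8 CPM with GFP and 103 and 104 with R175H, with a difference of -0.03 ± 0.07. MRPS18A differed by -0.01 ± 0.08 and MRPS18C by -0.16 ± 0.10 in the same comparison, and MRPS18C by -0.28 ± 0.09 in R248Q (adjusted p = 0.0732, edgeR).

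Promoters of many members carried letters of motifs known from nuclear genes for mitochondria. RefSeq windows of 300 bases, 250 before and 50 after the start, matched 68 of 77 members by symbol, on build GRCh38.p14. The ETS core CCGGAAG, bound by GABPA and its relatives, was present on either strand in 41.2% of members, 18.9% of promoters of genes tested and 10.7% of all 27305 promoters. The YY1 motif AAGATGGC was present in 29.4%, 5.55% and 3.03%, and the NRF1 motif GCGCATGC in 8.82%, 5.62% and 3.27%. The YY1 share includes members with the string only in the 50 bases after the start, among them MRPL20, MRPL22, MRPL38, MRPL42 and MRPL45. Others, such as MRPL32 and MRPL36, held it before the start. Cytosolic ribosomal protein promoters held the ETS, YY1 and NRF1 strings in 32.8%, 10.4% and 4.48%. The ETS and YY1 strings can overlap by their shared AAG. None of the 3 letter strings was found in 27 of the 68 members. A match describes the letters and is not a bound site. The 250 bases before the start are shown for the member with the clearest rise in R175H and for 3 called lower that hold a motif, chosen after their values were seen, with motif letters of either strand in capitals.
MRPS27 (chr5:72320241-72320490, minus strand): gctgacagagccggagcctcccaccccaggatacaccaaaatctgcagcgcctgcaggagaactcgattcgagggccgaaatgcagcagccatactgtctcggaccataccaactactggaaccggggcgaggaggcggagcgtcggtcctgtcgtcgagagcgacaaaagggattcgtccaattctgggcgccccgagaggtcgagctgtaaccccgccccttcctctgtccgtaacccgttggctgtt
MRPL36 (chr5:1799838-1800087, minus strand): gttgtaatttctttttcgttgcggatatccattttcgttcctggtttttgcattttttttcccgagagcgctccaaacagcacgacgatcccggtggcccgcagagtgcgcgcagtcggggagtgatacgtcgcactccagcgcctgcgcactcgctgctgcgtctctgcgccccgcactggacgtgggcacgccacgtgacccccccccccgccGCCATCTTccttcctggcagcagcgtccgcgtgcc
MRPL47 (chr3:179604639-179604888, minus strand): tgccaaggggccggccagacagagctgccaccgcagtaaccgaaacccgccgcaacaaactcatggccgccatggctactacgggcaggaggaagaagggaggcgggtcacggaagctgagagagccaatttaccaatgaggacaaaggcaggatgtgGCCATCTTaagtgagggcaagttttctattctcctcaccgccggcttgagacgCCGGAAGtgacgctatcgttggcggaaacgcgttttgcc
MRPS21 (chr1:150293611-150293860, plus strand): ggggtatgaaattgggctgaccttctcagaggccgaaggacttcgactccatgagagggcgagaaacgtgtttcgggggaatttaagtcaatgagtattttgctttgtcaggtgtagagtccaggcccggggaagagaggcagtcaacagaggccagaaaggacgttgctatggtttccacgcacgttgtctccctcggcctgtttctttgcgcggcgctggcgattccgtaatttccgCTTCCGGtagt
MRPS27 had none of the 3 motifs before its start and a YY1 match within the 50 bases after it, MRPL36 had a YY1 match, MRPL47 an ETS core and a YY1 match, and MRPS21 an ETS core. Among other members called lower in R175H, MRPL49 and MRPS17 held none of the 3 in the whole window. MRPL50 held a YY1 match only after its start, and MRPL35 had no matched promoter. MRPS6, also called lower, had a matched promoter that is not described here. The sequences shown therefore link no motif to a direction of change.

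Genes that serve the mitochondrial ribosome were read from the same fit, by lists of the pathway. Of 6 ribosomal proteins under other symbols, none was called in R175H and 1 was lower in R248Q, GADD45GIP1, at -0.21 ± 0.06 (adjusted p = 0.0495, edgeR). Against GFP replicate 2 alone it was at -0.14 ± 0.05 (adjusted p = 0.145), and 0 of the 6 were called. Of 17 translation factors, 1 was higher (5.88%, beside 6.59% of all genes) and 2 lower (11.76%, beside 4.81%) in R175H. LRPPRC and SLIRP, which form a complex that keeps mitochondrial messenger RNAs stable, went in opposite directions. LRPPRC had 631 and 634 CPM with GFP and 729 and 699.8 with R175H, a log2 fold change of 0.18 ± 0.05 (adjusted p = 0.0432), and 0.17 ± 0.04 against GFP replicate 2 alone (adjusted p = 0.00303). SLIRP had 151 and 116 CPM with GFP and 93.2 and 103 with R175H, a change of -0.44 ± 0.10 (adjusted p = 0.00727), and -0.23 ± 0.07 against GFP replicate 2 alone (adjusted p = 0.018). In both genes the R175H libraries were apart from both GFP libraries. SLIRP was also called lower in R248Q with both GFP libraries, at -0.33 ± 0.09 (adjusted p = 0.0402), and was not called against GFP replicate 2 alone, at -0.13 ± 0.07 (adjusted p = 0.352). C12orf65, a release factor for stalled ribosomes, was the other member of the list called lower, at -0.47 ± 0.13 (adjusted p = 0.0278), and did not pass against GFP replicate 2 alone, at -0.45 ± 0.16 (adjusted p = 0.0517).

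Of 23 assembly and ribosomal RNA modification factors, 1 was higher (4.35%, beside 6.59% of all genes) and 3 lower (13.04%, beside 4.81%) in R175H. MPV17L2, an inner membrane protein needed for ribosome assembly, had 74.8 and 66.7 CPM with GFP, 48.8 and 49.9 with R175H, 59.7 and 61.2 with R248Q and 63.8 and 65.7 with R273H. It was lowest in both R175H libraries, with a log2 fold change of -0.52 ± 0.08 (adjusted p = 0.000434, edgeR) and -0.43 ± 0.09 against GFP replicate 2 alone (adjusted p = 0.000142). NOA1, a GTPase of small subunit assembly, was highest there, at 107 and 102 CPM against 75.5 and 85.8 with GFP, a change of 0.37 ± 0.07 (adjusted p = 0.00304) and 0.28 ± 0.07 in the second fit (adjusted p = 0.00361). MRM1 and MTERFD1 were called lower with both GFP libraries, at -0.33 ± 0.10 and -0.37 ± 0.12, and neither passed against GFP replicate 2 alone, at -0.31 ± 0.12 and -0.18 ± 0.13.

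Of 9 genes of mitochondrial transcription and DNA maintenance, 2 were lower in R175H (22.22%, beside 4.81% of all genes): C10orf2, the Twinkle helicase, at -0.29 ± 0.07 (adjusted p = 0.0141, edgeR) and TFB2M, a transcription factor, at -0.31 ± 0.09 (adjusted p = 0.0432). Against GFP replicate 2 alone C10orf2 was still called, at -0.28 ± 0.08 (adjusted p = 0.00976), and TFB2M was not, at -0.21 ± 0.10 (adjusted p = 0.16). C10orf2, annotated under the symbol TWNK, shares exons with MRPL43 on the opposite strand. The strand setting of the counting is not given, so reads of these genes cannot be told apart there. Of 7 regulators of nuclear genes for mitochondria none was called in R175H or R248Q with both GFP libraries in the fit. Against GFP replicate 2 alone PPRC1 was lower in R175H, at -0.20 ± 0.05 (adjusted p = 0.00409), and ESRRA lower in R248Q, at -0.23 ± 0.06 (adjusted p = 0.00719). With both GFP libraries 2 were higher in R248Q than in R175H, beside 3.35% of all genes: PPRC1 at 0.24 ± 0.06 and NRF1 at 0.35 ± 0.10. The table held 0 symbols of mitochondrially encoded genes, so the messages that this ribosome translates were not analysed here.

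The family's shift with GFP replicate 1 was shared by other gene families. In the fit with both GFP libraries, the medians for R175H, R248Q and R273H were -0.02, -0.14 and -0.03 for 79 cytosolic ribosomal proteins and -0.10, -0.15 and -0.07 for 77 nuclear-encoded respiratory chain subunits, beside -0.10, -0.13 and -0.06 for the mitochondrial ribosomal proteins. Against GFP replicate 2 alone they became 0.12, 0.00 and 0.10 for the cytosolic ribosomal proteins, of which 38, 0 and 7 were called higher, beside 6.53%, 3.2% and 1.11% of all genes. They became 0.03, -0.03 and 0.04 for the respiratory chain, of which 2, 0 and 1 were called higher, and -0.02, -0.03 and 0.03 for the mitochondrial ribosomal proteins, of which 3, 0 and 0 were called higher. An offset for transcript length, fitted in each library, brought the medians of the mitochondrial ribosomal proteins with both GFP libraries to -0.06, -0.04 and -0.01.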

How the data were processed

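Per the labels' protocols, RNA was collected with an RNeasy kit and libraries were made with a Kapa mRNA kit. Per the submitters' processing notes, the authors used bcl2fastq, STAR 2.5 and the hg19 build. The authors deposited unnormalised counts of reads for each gene symbol. How reads were counted, with which annotation and strand rule, is not given in the sources used here. Members with near-identical copies or overlapping genes are therefore uncertain. Members and gene lists were chosen with earlier results of these data known. Some genes are not reported here.

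Counts were tested in R 4.3.3 with edgeR 4.0.16: filterByExpr (at least 10 counts, total at least 15), TMM scaling (factors 0.989 to 1.01), and a quasi-likelihood fit of 4 group means to 8 libraries, which left 4 residual degrees of freedom. The biological coefficient of variation was 4.51%. Each of 6 contrasts was adjusted by Benjamini-Hochberg over 13213 genes, with calls under 0.05. SE was taken from the fold change and its F statistic. The script was tested on simulated data. Alternatives were DESeq2 1.42.0, limma 3.58.1 (voom), other scalings, no filter, only the groups compared, a replicate block, an offset for transcript length (GENCODE 29 median, loess span 0.3) and each library left out. Per-kilobase levels use the same lengths.

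Genes are named by a rule: every member called with all libraries or without GFP replicate 1, the 3 highest and 3 lowest fold changes in each comparison, the 3 highest and 3 lowest levels per kilobase, 7 members with particular roles, and up to 3 called genes of each other list. MTERFD1, MRPS24, MRPL23, ACTL6A, SLC5A3, FAU and SYVN1 were added after their values were seen.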

Additional observations from a re-analysis of the deposited data

Results flagged for a closer look

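In 4 cases the effects of 2 mutants, each taken against the same GFP libraries, differed by a direct test between them (the quasi-likelihood test of edgeR, corrected over all genes). MRPS27 was lower in R248Q than in R175H by -0.27 on the log2 scale (adjusted p = 0.00464) and lower in R273H than in R175H by -0.32 (adjusted p = 0.00208). Every R175H library was above every library of the other mutants. MRPL10 was lower in R248Q than in R175H by -0.26 (adjusted p = 0.0164), again in both libraries. MRPL39 was lower in R248Q than in R175H by -0.33 (adjusted p = 0.0498), and 5 of 17 alternatives kept that call.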

How the results depend on the processing

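With 2 libraries per group, single calls moved easily: of 15 member calls, 14 held with DESeq2's size factors, with library size alone and with limma-voom, 15 without a filter, 8 with DESeq2, 6 with only the groups compared, 12 with the length offset, 4 without R175H replicate 1 and 1 without R175H replicate 2. MRPS27 in R175H against GFP held in all 17 alternatives. The counts that leave out a library use fewer samples. For other moves the cause was not tested. Shares of all genes called are given here only with all libraries and without GFP replicate 1. The other counts of calls below are therefore not set against such a share and are not read as particular to the members.

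Against GFP, no filter gave 14 members lower for R175H and 8 lower for R248Q, and 1 higher and 4 lower in R248Q than in R175H. DESeq2 gave 1 higher and 5 lower in R175H, 0 lower in R248Q, and 1 lower in R248Q than in R175H. With only the groups compared, 1 was higher and 1 lower in R175H, 0 lower in R248Q, 2 higher and 6 lower in R248Q than in R175H, 2 higher and 2 lower in R273H than in R175H, and 3 higher in R273H than in R248Q.

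Correlations of same-numbered deviations between groups ran from -0.244 for GFP and R273H to 0.073 for R175H and R273H. The labels do not say whether same-numbered libraries shared a culture or batch, and these correlations cannot settle it. With the replicate block, 1 member was higher and 6 lower in R175H, 0 were lower in R248Q, and 9 of the 15 calls held.

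The length offset gave 1 member higher in R248Q than in GFP with a median of -0.036, 2 higher in R248Q than in R175H with a median of 0.027, 1 higher and 2 lower in R273H than in R175H, and a median of 0.026 for R273H over R248Q. In that fit, unadjusted p in edgeR was under 0.05 for 14.5% of members in R248Q against GFP, beside 19.8% of all genes. It was 21.1% beside 25.2% for R248Q against R175H, and 23.7% beside 22.3% for R273H against R175H. With the length offset and without GFP replicate 1, the median was -0.002 for R248Q over GFP. It was 0.026 for R248Q over R175H and 0.026 for R273H over R248Q.

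Leaving out 1 library at a time, R175H against GFP ranged from 1 to 3 members higher and from 0 to 35 lower, with medians from -0.191 to -0.019. R248Q against GFP ranged from 0 to 41 lower, with medians from -0.206 to -0.031, and R273H against GFP from 0 to 20 lower, with medians from -0.128 to 0.031. The highest of these counts of lower members, and the lowest medians, came without GFP replicate 2, where GFP replicate 1 was the only control. The share of all genes called lower in that fit is not given here. Those counts therefore cannot tell a change of the family from a rise in calls over all genes. The median of R273H turned positive without GFP replicate 1. The 0 lower in R175H came without R175H replicate 2, and 2 came without R175H replicate 1. R248Q against R175H ranged from 0 to 2 higher and 0 to 6 lower, with medians from -0.062 without R175H replicate 1 to 0.014 without R175H replicate 2. R273H against R175H ranged from 0 to 4 higher and 0 to 2 lower, with medians from 0.017 to 0.092. R273H against R248Q ranged from 0 to 1 higher, with medians from 0.043 to 0.083.

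Signs reversed for 7 named values, of which MRPL33 in R248Q (-0.31) and MRPS17 in R273H (-0.24) were not close to 0 with all libraries. MRPL54 in R175H against GFP became 0.0184 with limma-voom, 0.0731 with the length offset and 0.314 with both the offset and GFP replicate 1 left out. With 1 library left out it ran from -0.282 without GFP replicate 2 to 0.341 without GFP replicate 1, and was 0.0588 without R175H replicate 1. In R273H against GFP, leaving out 1 library gave MRPL1 from -0.0688 to 0.188, MRPS18A from -0.0212 to 0.140 and MRPS17 from -0.431 to 0.000314. In R248Q against GFP it gave MRPL19 from -0.0550 to 0.0609 and MRPL33 from -0.549 to 0.000435, with 0.015 for MRPL33 with the offset too. In these 5 genes the lowest value came without GFP replicate 2 and the highest without GFP replicate 1. MRPL19 was -0.00318 without R248Q replicate 1. MRPS6 in R273H over R248Q ran from -0.0850 without R248Q replicate 1 to 0.0175 without R248Q replicate 2.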

Other observations

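The symbols left out of the family held few counts. MRPS31P5, a pseudogene of MRPS31, had between 29 and 59 counts per library and MRPL45P2 between 14 and 35. MRPL23-AS1, antisense to MRPL23, had between 1 and 4, and MRPL42P5 was at 0 in all 8 libraries. In GENCODE release 29, 34 members share exon sequence with another gene, 27 of them with a protein-coding gene and 17 of these with one on the opposite strand.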
